A study of Oryza sativa with 36 samples.

Results

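Leaf RNA of the rice parents 9311 and PA64s was compared on 12 Affymetrix arrays, out of 36 in the series. The arrays were chosen by their labels alone, as the 6 leaf arrays of 9311 and the 6 of PA64s, and all 57194 non-control probe sets were considered. As background that the labels do not give, 9311 is an inbred restorer line, PA64s is a male-sterile line whose sterility depends on growth conditions, and LYP9 is their hybrid. Of the 6 arrays per parent, 3 came from nutrient-sufficient plants and 3 from nutrient-deficient plants, and the same holds for the 6 LYP9 leaf arrays and for the root arrays used for comparison. Seedlings were raised for 5 days in soil mixed with nutrients and moved to 12 barrels of poor soil, each holding 15 seedlings per variety. At 14 days of age 6 barrels received 10 g urea and 10 g compound fertiliser, which made the nutrient-sufficient state, and the other barrels received none. The labels do not say whether replicates came from separate plants or barrels, so a p-value here covers no more than the spread among these arrays. The series asks which expression differences in the hybrid go with heterosis, and a difference between the parents is one kind of background against which the hybrid is read.

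A leaf fixes carbon in the chloroplast, exports sucrose, and receives water, silicon, nitrogen, phosphorus and metals through the xylem. Transporters and chelators in leaf veins move iron and zinc, aquaporins carry water and silicic acid, and heat shock proteins refold damaged proteins. Inbred lines of different origin can differ in the level of a transcript, in its sequence, or in whether the gene is present. A short array probe reads all 3 as a difference in signal, and they cannot be told apart here.

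Each value is a log2 intensity, and a difference is the mean of 9311 minus the mean of PA64s. Of the non-control probe sets, the 34316 in the upper 60% by mean leaf signal were tested with limma, and those with an adjusted p (Benjamini-Hochberg) under 0.05 count as called. The leaf label was borne out by marker genes. The 9 leaf markers had group means of 11.77 to 12.29 log2 units among leaf groups, against 5.46 to 6.11 among root groups, and the 11 root markers had 6.18 to 6.48 among leaf groups, against 9.27 to 10.57 among root groups. Among the 8 leaf markers and 7 root markers that passed the filter, limma called 0 between the parents, with 1 and 2 at an unadjusted p under 0.05. Of all 34316 tested probe sets, 8172 had an unadjusted p under 0.05. Arrays of 1 group correlated at 0.9753 or more across probe sets in the parental leaf groups. The first principal component of the 18 leaf arrays (34.2% of variance) ordered 9311, LYP9 and PA64s within each nutrient state. It also shifted with the state, so a sufficient LYP9 array (-26.8) lay level with a deficient 9311 array (-26). The second component (28.3%) separated the nutrient states. The number of arrays limits the precision.

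Averaged over both states, 4072 probe sets were called (11.9% of those tested), 1863 higher in 9311 (5.43%) and 2209 lower in 9311 (6.44%). Tested in each state alone, 2318 were called in sufficient leaves (6.75%), 2.84% higher in 9311 and 3.91% lower. In deficient leaves 2149 were called (6.26%), 2.63% higher in 9311 and 3.64% lower. The difference was called in the average and in both states with 1 sign for 1520 probe sets (4.43%), here named held, of which 593 were higher in 9311 (1.73%) and 927 lower (2.70%). Sufficient-state calls were also called in the deficient state in 65.6% of cases, and deficient-state calls in the sufficient state in 70.8%. Of the 4072 average calls, 705 were called in the sufficient state only, 557 in the deficient state only and 1290 in neither state alone. Their sign was the same in both states for 4063 and opposite for 9. A call missed in 1 state does not show that the parents were alike there.

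Held differences were often large. Higher in 9311, 374 probe sets were at least 2-fold apart, 167 at least 4-fold and 47 at least 16-fold. Lower in 9311, 660 were at least 2-fold apart, 368 at least 4-fold and 126 at least 16-fold. The median held log2 difference was 1.27 in the higher group and -1.53 in the lower group, and the median of all tested probe sets was 0.03. The 6 arrays of 9311 did not overlap the 6 of PA64s for 1361 held probe sets, beside 5.86% of all tested probe sets (2.35% with 9311 higher and 3.52% with 9311 lower). Held probe sets were chosen on these same arrays, which favours such separation, so nothing further is read from it. PA64s lay below the filter level of 5.753 log2 units in both states for 160 of the held probe sets that were higher in 9311, and 9311 lay below it for 347 of those that were lower. For such genes the difference is given on the log2 scale, without a fold, because its size near background is uncertain. A gene could be tied to 811 held probe sets (53.4%, beside 50.6% of all tested), which stand for 758 genes, 72 of them with a name other than a locus number.

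**Figure D1:**
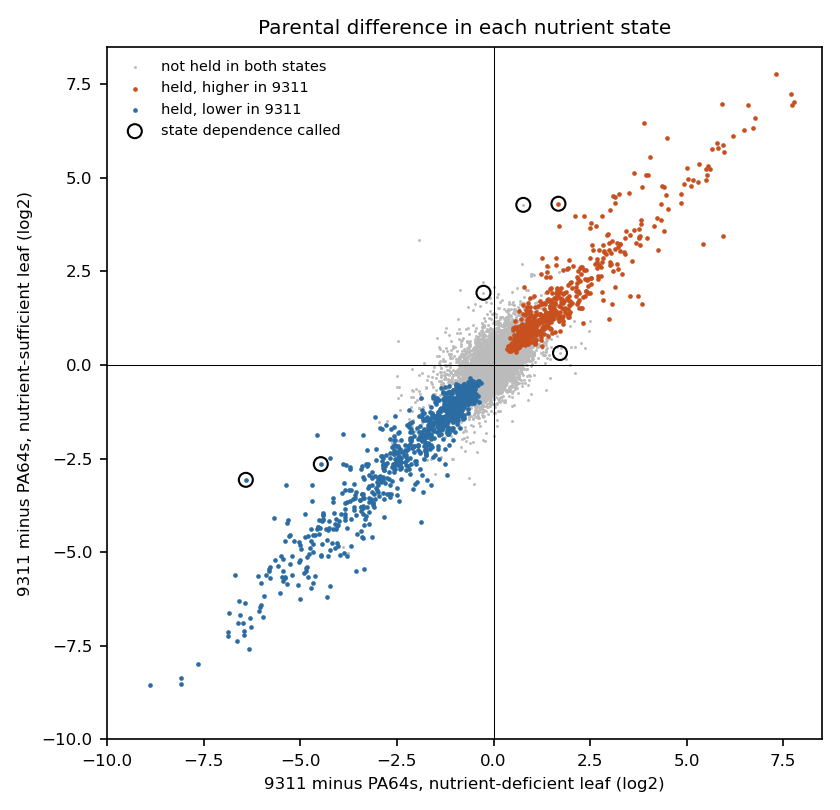
Difference in leaf, 9311 minus PA64s, for all 34316 tested probe sets, with the nutrient-deficient state on the horizontal axis and the nutrient-sufficient state on the vertical axis (log2). The 593 held probe sets higher in 9311 lie in the upper right, the 927 lower in 9311 in the lower left, and rings mark the 6 probe sets whose difference depended on the nutrient state.

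Among named genes higher in 9311 leaves were a tiller angle gene, metal and silicon transporters and an enzyme of trehalose metabolism. The genes that lead each direction were picked from held probe sets whose parental arrays do not overlap. A lack of overlap in them therefore adds no support. TAC1, which sets the angle of rice tillers, had 167.2, 171.3 and 237.5 intensity units in sufficient 9311 leaves and 140.8, 155.6 and 117.4 in deficient ones, against 28.3, 31.7 and 33.7 in sufficient PA64s leaves and 29.3, 26.7 and 30.8 in deficient ones. Every 9311 array lay above every PA64s array, by a log2 difference of 2.43 ± 0.11 (SE, adjusted p = 2.75e-11). OsTPP7 (LOC4346885), a trehalose-6-phosphate phosphatase known for its role in germination under water, had 458.5 to 522.2 units in sufficient and 502.6 to 626.6 in deficient 9311 leaves, against 14.0 to 16.4 and 13.8 to 19.2 in PA64s leaves. Its log2 difference was 5.00 ± 0.11 (adjusted p = 3.21e-15), and its other probe set stood at 2.18 and was also held. The groups were far apart on both probe sets, though the size differed between them. Lsi6 (LOC4340558), a silicon channel of leaf sheaths and blades, had 1939.6 units as the middle of the 3 sufficient 9311 arrays, which ran from 1663.2 to 2971.9, against 182.7 to 481.2 in sufficient PA64s arrays. In deficient leaves it had 1294.8 to 1658.8 units in 9311, against 383.3 to 560.2 in PA64s. Lsi6 was 4.44-fold higher in 9311 (log2 2.15 ± 0.29, adjusted p = 4.66e-05).

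Other named genes of this direction covered redox and transcription. GRXS9 (LOC9269297), a glutaredoxin, averaged 11.47 log2 units in 9311 and 9.47 in PA64s, a 3.98-fold difference. GATA17 (LOC4328300), a transcription factor of the GATA zinc finger type, was 3.47-fold higher in 9311, with 8.55 to 9.21 over its 6 arrays and 6.95 to 7.21 over those of PA64s. GSTU6 (LOC4349207), a glutathione transferase, was 3.02-fold higher, and OsSPO11-4 (LOC4352826), a relative of the SPO11 enzymes that cut DNA in meiosis, was higher by log2 1.74 ± 0.14. For all 4 genes the arrays of the parents did not overlap, as their choice required. BURP16 (LOC4348595), a protein with a BURP domain, differed by 3.72 in sufficient leaves and 1.69 in deficient leaves, a state difference that was not called (adjusted p = 0.549). Its deficient 9311 arrays spread widely, at 54.0, 79.1 and 204.3 units, against 36.7, 25.3 and 28.1 in deficient PA64s leaves. OsPP2C62 (LOC4343331), a protein phosphatase, had the largest difference of a named gene at 6.45 ± 0.69, but 1 deficient PA64s array read 111.3 units where the other 5 read 1.8 to 4.8. A second probe set of OsPP2C62 was at -0.29 and not called, and with 16 added to each value before the log the difference was 4.27 (adjusted p = 4.12e-07).

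Among genes known only by a locus number, LOC4324010 had 1909.1 to 2730.0 units over the 6 arrays of 9311, against 18.1 to 27.2 over those of PA64s, a log2 difference of 6.76 ± 0.13. Its other probe sets did not follow, 1 at -4.32 and called lower in 9311 and 1 at 0.29, so the gene as a whole cannot be given a direction. LOC4325422 (5.8), LOC4325412 (5.38) and LOC4328273 (5.33) came next, with PA64s below the filter level in both states for each. A second probe set of LOC4328273 was at 0.25 and not called.

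Named genes lower in 9311 leaves included ROC1, SDH3-2, AGO18 and CML15. ROC1 (LOC4344832), a homeodomain factor expressed in the epidermis, had 118.2, 196.6 and 155.0 units in sufficient and 233.8, 248.9 and 205.2 in deficient 9311 leaves, against 1011.2, 687.3 and 846.3 in sufficient and 905.3, 1048.0 and 1387.2 in deficient PA64s leaves. No array overlapped, as the choice required, and ROC1 was 5.12-fold lower in 9311 (log2 -2.36 ± 0.15, adjusted p = 2.58e-09). SDH3-2 (LOC4343404), a subunit of succinate dehydrogenase in the mitochondrion, had 43.4 to 59.2 units in sufficient and 56.1 to 68.9 in deficient 9311 leaves, against 469.6 to 839.4 and 389.5 to 781.9 in PA64s leaves. Its log2 difference was -3.31 ± 0.21 (adjusted p = 2.84e-09). AGO18 (LOC4343201), an Argonaute protein of RNA silencing known in rice for defence against viruses, stayed at 26.0 to 38.4 units over all 9311 arrays, against 62.9, 73.8 and 130.4 in sufficient PA64s leaves and 183.4, 240.6 and 288.2 in deficient ones. The log2 difference was -1.40 in sufficient leaves and -3.07 in deficient leaves, and that gap of 1.67 ± 0.32 was not called (adjusted p = 0.135).

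CML15 (LOC4338633), a calmodulin-like calcium sensor, was 3.92-fold lower in 9311, with 5.91 to 7.50 log2 units over the 9311 arrays and 7.85 to 9.67 over the PA64s arrays. OsNrx1-1 (LOC4333075), a nucleoredoxin, was 3.81-fold lower, and the protein phosphatase OsPP2C18 (LOC4329881) 3.46-fold lower. IRL5 (LOC4349464), a leucine-rich repeat protein, was 2.66-fold lower on 1 probe set, while a second stood at 0.35 and was not called. MST3 (LOC4342198), a monosaccharide transporter, was 2.33-fold lower in 9311, with 438.5 to 1141.4 units against 1451.5 to 1908.8 in PA64s. The parental arrays did not overlap for any of these 5, as their choice required.

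Among the 34316 tested probe sets, with or without a listed gene, the largest fitted log2 difference was that of LOC4326061, a gene without a name. LOC4326061 read 2.0 to 3.7 units on the 6 arrays of 9311, against 981.0 to 1803.2 on those of PA64s, a log2 difference of -8.72 ± 0.17 (adjusted p = 8.46e-16). Its other probe sets gave -6.73 and -8.23, so all 3 had 1 direction. LOC4326058 was at -7.82 ± 0.10, LOC4352358 at -6.96 ± 0.27 and LOC4348206 at -6.40 ± 0.43. For all 4 genes 9311 lay below the filter level in both states, so the sizes, and with them the order, are uncertain.

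**Figure D2:**
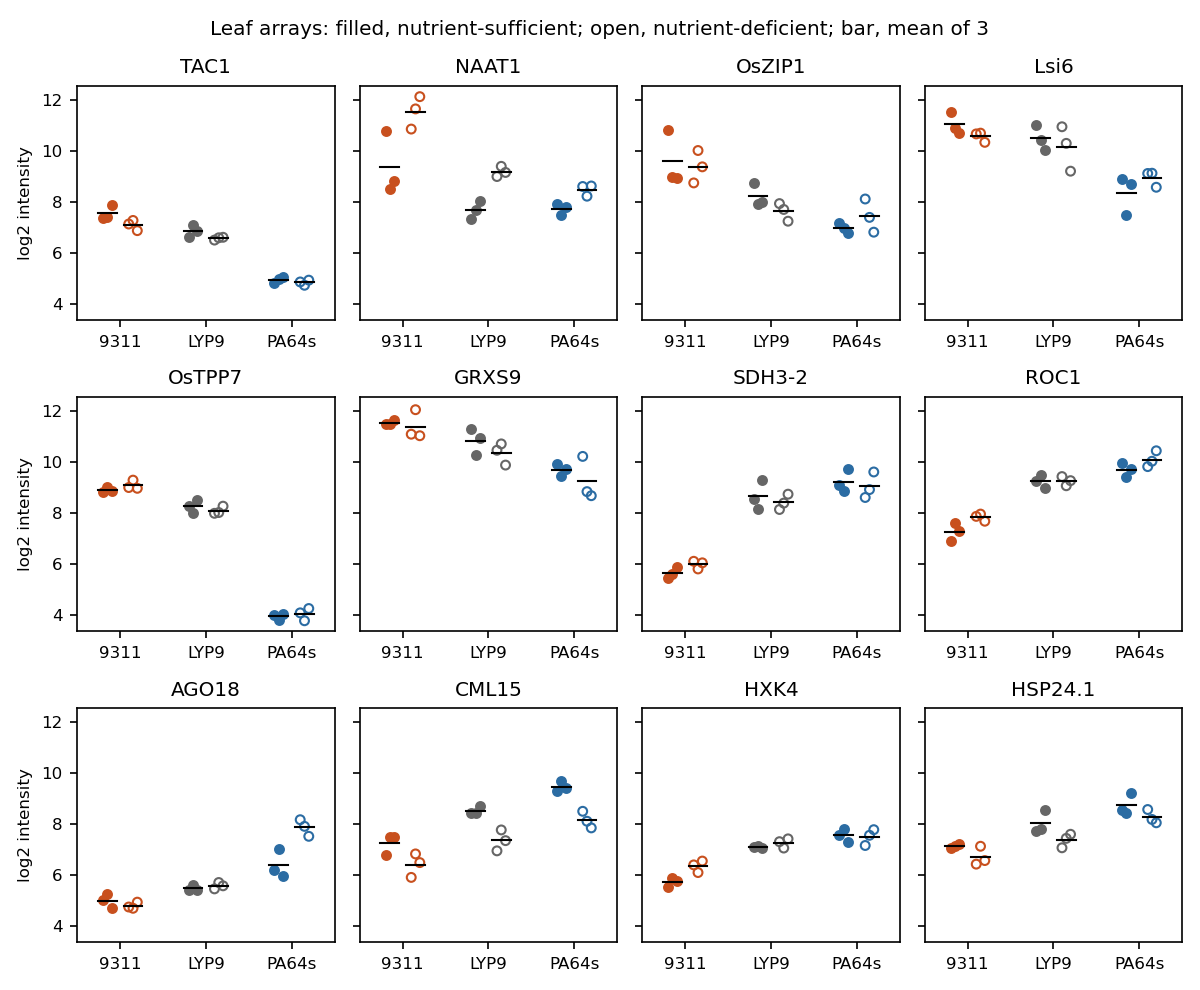
Log2 intensity of 12 named genes on each leaf array, in panels with 9311 at the left, LYP9 in the middle and PA64s at the right, filled points for the nutrient-sufficient and open points for the nutrient-deficient state, and a bar at the mean of 3 arrays. The parents' points do not overlap for any gene shown but NAAT1, where 1 sufficient 9311 array lay below 2 deficient PA64s arrays. The other genes shown were chosen for this separation among held probe sets.

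Gene groups were described with 1 probe set per gene, over 14646 genes, of which 901 were called higher in 9311 (6.15%) and 1141 lower (7.79%), 13.9% in all, with a median log2 difference of -0.02. Without adjustment, 4042 of the 14646 genes had a p under 0.05 (limma), which is the background for such counts within a list. Lists were filled by gene name or synonym, so family members known only by a locus number are left out. Of 39 measured genes for iron, zinc and other metals, 7 were called higher and 5 lower, with a median of 0.02. NAAT1 (LOC9267778), nicotianamine aminotransferase of the pathway to the iron chelator deoxymugineic acid, had 1753.5, 363.1 and 455.7 units in sufficient and 1852.7, 3212.1 and 4484.7 in deficient 9311 leaves, against 244.7, 181.3 and 222.2 in sufficient and 391.8, 299.7 and 396.8 in deficient PA64s leaves. It was 5.06-fold higher in 9311 (log2 2.34 ± 0.31, adjusted p = 3.78e-05), with the first sufficient 9311 array well above the other 2, 1 of which lay below 2 deficient PA64s arrays. OsZIP1 (LOC4342782, also listed as OsZIP8), a zinc and iron transporter of the ZIP family, was 4.81-fold higher, and again the first sufficient 9311 array was the highest, at 1833.5 units beside 506.6 and 498.0, against 111.4 to 145.4 in sufficient PA64s leaves.

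NAS3 (LOC4344361), a nicotianamine synthase one step before NAAT1, was 3.57-fold higher in 9311 (adjusted p = 0.00268), although it was not held because the sufficient state alone gave an adjusted p of 0.0753. OsVIT1.2 (LOC4346978), which loads iron into the vacuole, was 3.28-fold higher. NRAMP4 (LOC4324486), of the NRAMP family of metal carriers, was 3.43-fold higher on its most different probe set, its others gave 1.42, 1.25 and 0.25, and only the last was not called. On the other side stood OsZIP5 (LOC4339082) at log2 -1.09 ± 0.17, and OsYSL14 (LOC9267947), of the family that carries metals bound to nicotianamine, at -0.83 ± 0.18. OsZIP5 differed by -1.64 in sufficient leaves and -0.53 in deficient leaves, the second not called. OsYSL14 was called in neither state alone. Metal genes were thus called in both directions, with the larger differences higher in 9311. On the probe sets counted, 3 were held higher in 9311 and 0 were held lower.

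Aquaporins were called in 1 direction only among those measured. Of 22, 6 were called higher in 9311 and 0 lower (27.3%, beside 13.9% of all genes). Their median was 0.18, and 9 had an unadjusted p under 0.05 (limma). Beside Lsi6, the vacuolar water channel TIP1;2 (LOC4324303) was 2.93-fold higher, with 2864.7 to 5732.1 units over the 9311 arrays and 833.8 to 1990.2 over the PA64s arrays. The plasma membrane channel PIP2;1 (LOC4343122) was 2-fold higher on the probe set counted, and 1 of its other probe sets was at 1.15 and another at -1.07, called lower. A group count of this kind rests on the probe set chosen for each gene.

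Carbon metabolism had 7 of 47 genes called higher in 9311 and 2 lower (19.1%, beside 13.9% of all genes), with a median of 0.04. OsTPP7 led them. SS1 (LOC9269493), a soluble starch synthase, was 2.48-fold higher (adjusted p = 0.000583), by 1.82 in sufficient leaves and 0.80 in deficient ones, where it was not called. The sugar carrier OsSWEET2a (LOC4326868) was 2.33-fold higher on average (adjusted p = 0.018), by 1.96 in sufficient leaves and by 0.47, not called, in deficient leaves, and the parents' arrays overlapped. HXK4 (LOC4342654), a hexokinase, was lower in 9311 by log2 -1.48 ± 0.12, with 46.8 to 93.8 units against 142.7 to 221.6 in PA64s. The remaining lower call, OsSUS6 (LOC4331252), ended without any of 8 single arrays (-0.58 to -0.43). It also ended with quantile scaling, median centring, no filter or the parents' arrays alone. The 16 Calvin cycle and photorespiration genes gave 1 call higher and 2 lower (18.8%). The lower call of PPDK2 (LOC4333181) ended without any of 10 single arrays, with no filter, or with 16 added to each value. Both glycolate oxidases called there went opposite ways, GLO3 (LOC4337048) at 0.90 ± 0.11 and GLO4 (LOC4343908) at -0.57 ± 0.10. GLO4 was not called in deficient leaves (-0.42). Of 10 light-harvesting and photosystem genes 0 were called higher and 1 lower, the lower being a ferredoxin-NADP reductase (LOC4342399) at -0.30. It differed by 0.02 in sufficient leaves, not called, and by -0.62 in deficient leaves. Its other probe set was called higher at 0.36, and the call at -0.30 ended without deficient 9311 replicate 2 (-0.26).

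Among 14 chlorophyll genes 1 was called each way (14.3%, beside 13.9% of all genes). PORA (LOC4337415), the protochlorophyllide reductase of greening leaves, was 1.92-fold higher in 9311 (adjusted p = 0.00571), and RCCR1 (LOC4348519), an enzyme of chlorophyll breakdown, was 2.06-fold lower (adjusted p = 0.00211). PORA was not called in sufficient leaves (0.75) and RCCR1 not in deficient leaves (-0.94), so neither was held. Of 27 genes for nitrogen uptake and assimilation only GDH1 (LOC4334405), a glutamate dehydrogenase, was called, lower in 9311 by log2 -0.81 ± 0.19. It differed by -1.37 in sufficient leaves, where 9311 averaged 9.17 ± 0.45 log2 units and PA64s 10.54 ± 0.32 (SD, n = 3 each), and by -0.26 in deficient leaves, not called. The share of nitrogen genes called, 3.7%, was below that of all genes. Of 14 phosphate genes 1 was called higher and 2 lower (21.4%). The higher one, OsSPX1 (LOC4341465) at 0.71, lost its call with quantile scaling (0.70), with median centring (0.69) and without any of 8 single arrays (0.59 to 0.75), and the lower OsPHR3 (LOC4328249) at -0.71 lost it without any of 5 (-0.69 to -0.53). OsPht1;8 (LOC4348741), a phosphate transporter, was 2.62-fold lower on 1 probe set and 1.87-fold lower on another, while the remaining one was at -0.03.

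Heat shock genes were called lower in 9311 in 8 of 42 cases and higher in 3 (26.2%, beside 13.9% of all genes). Their median was -0.05. HSP24.1 (LOC4330786), a small heat shock protein, had 86.5 to 147.4 units over the 9311 arrays, against 264.7 to 596.0 over those of PA64s, and was 2.99-fold lower. BIP1, the chaperone of the endoplasmic reticulum, was 1.79-fold lower (adjusted p = 0.000403). LOC4348646 was 3.62-fold lower, but the annotation gives it the names of both a dioxygenase (ARD1) and a heat shock factor (HSFA2C), and its other probe set was at -0.05. CLPB1 (LOC4339343), known as HSP101, went the other way by log2 0.93 ± 0.16. The remaining higher calls ended when single arrays were left out, HSP18.6 (LOC4330933) without any of 4 and HSP22.3 (LOC4339231) without any of 11. A second probe set of HSP18.6 was at 0.35 and not called. The HSP22.3 call also ended with no filter, the stricter filter or trended robust eBayes.

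The 6 measured WRKY transcription factors found by name, of a family known in defence, all had negative differences. Of these, 3 were called lower in 9311, beside 7.79% of all genes, with a median of -0.54 and 5 at an unadjusted p under 0.05. WRKY genes without such a name were not counted, so the family as a whole is not described. WRKY51 had 6.63 to 7.51 log2 units in 9311 and 7.91 to 8.52 in PA64s and was 2.27-fold lower (adjusted p = 5.84e-06). OsWRKY62 (LOC4347070) was lower by log2 -1.09 ± 0.27, and was not called in either state alone. The other called factor, WRKY9 (LOC4343736), was at -0.26, a call that ended without any of 11 of the 12 single arrays (-0.28 to -0.22). That call also ended with quantile scaling, no filter, the stricter filter, trended robust eBayes or the parents' arrays alone. The chitinases, germin-like and other pathogenesis genes gave 1 call each way among 15 (13.3%, beside 13.9% of all genes). The higher one, Cht11 (LOC4331519), lost its call without any of 8 single arrays. Of 11 genes of diterpenoid phytoalexin synthesis 3 were called higher in 9311 and 0 lower (27.3%, beside 13.9% of all genes). These were CYP99A3 (LOC4335091) by 0.59 ± 0.08, CYP71Z6 (LOC4329725) by 0.58 ± 0.14 and KS6 (LOC4329728) by 0.33 ± 0.09. CYP99A3 and CYP71Z6 were called in sufficient leaves (0.90 and 0.73) and not in deficient leaves (0.28 and 0.42), and KS6 in neither state alone. The KS6 call ended without any of 7 single arrays (0.30 to 0.33). Pi21 (LOC4335725), a proline-containing protein whose loss gives resistance to blast, was 3.59-fold higher in 9311 on 1 probe set and at 1.68 on another. Its difference was 2.5 in deficient leaves, and in sufficient leaves 1.18, not called.

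Glutathione transferases, glutaredoxins and thioredoxins were called higher in 9311 in 5 of 37 cases and lower in 5. GRXC10 (LOC4351046) had the largest negative value of them at -2.15 ± 0.57, with arrays of 9311 from 5.23 to 9.69 log2 units overlapping those of PA64s from 6.78 to 11.49. GRXC10 was called in neither state alone. The call of GRXS2 (LOC4327316), counted as higher, ended without any of 9 single arrays (0.71 to 0.86). It also ended with no filter or with 16 added to each value. Lignin and phenylpropanoid genes were called 3 each way among 24, and dehydration and senescence genes 2 each way among 47. The lower call of CAD6 (LOC4335223) in the first list ended without any of 6 single arrays. Both lower calls of the second ended likewise, BURP3 (LOC4324159) without any of 6 and BURP10 (LOC4340763) without any of 7. The BURP3 call also ended with the parents' arrays alone. Cytosolic ribosomal proteins gave 0 calls among 25, with differences from -0.33 to 0.10 and 1 at an unadjusted p under 0.05.

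Genes of plant form and timing were described by 4 lists. Of 21 tillering and architecture genes 3 were called higher in 9311 and 2 lower (23.8%, beside 13.9% of all genes). TAC1 was held, as was SPL15 (LOC4346023), a squamosa promoter-binding-like factor that was 1.74-fold lower in 9311 (adjusted p = 0.000191) with no overlap of arrays, though no longer held without any of 5 single deficient arrays. SPL9 (LOC4338766) at 0.81, CKX11 (LOC4345764), a cytokinin oxidase, at 0.76, and MADS57 (LOC4330621), a MADS-box factor of tiller outgrowth, at -0.41 were called on average only. A second probe set of CKX11 was at 0.01 and not called. The SPL9 call ended without any of 6 single arrays (0.68 to 0.81), that of CKX11 without sufficient PA64s replicate 2 (0.67), and that of MADS57 without deficient 9311 replicate 3 (-0.34) or deficient PA64s replicate 2 (-0.40). Of 20 heading date genes 3 were called higher and 0 lower (15%), SE5 (LOC4341462), a heme oxygenase that makes the phytochrome chromophore, at 0.46, the flowering promoter MADS50 (LOC4331445) at 0.45, and the photoreceptor phyC (LOC4334135) at 0.69. The phyC call ended without any of 5 single arrays (0.57 to 0.65). None of the 3 was held.

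The 18 gibberellin and height genes gave 0 calls (limma; 2 at an unadjusted p under 0.05), with differences from -0.36 to 0.26, and the 7 clock genes gave 0 (limma; 2 at an unadjusted p under 0.05), from -0.39 to 0.70. Of 42 cell cycle and histone genes 3 were called higher and 0 lower, led by PCNA (LOC4331062), the sliding clamp of DNA replication, at 1.98-fold. Their share called, 7.1%, was below that of all genes, and the call of CYCL1-1 (LOC4325450) among them ended without any of 5 single arrays. Of the fertility loci, 2 were measured, and Rf2 (LOC4328996), a restorer gene of a cytoplasmic male sterility, was called higher in 9311 at 0.53. That call ended without any of 8 single arrays (0.44 to 0.52) and with median centring (0.51).

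**Figure D3:**
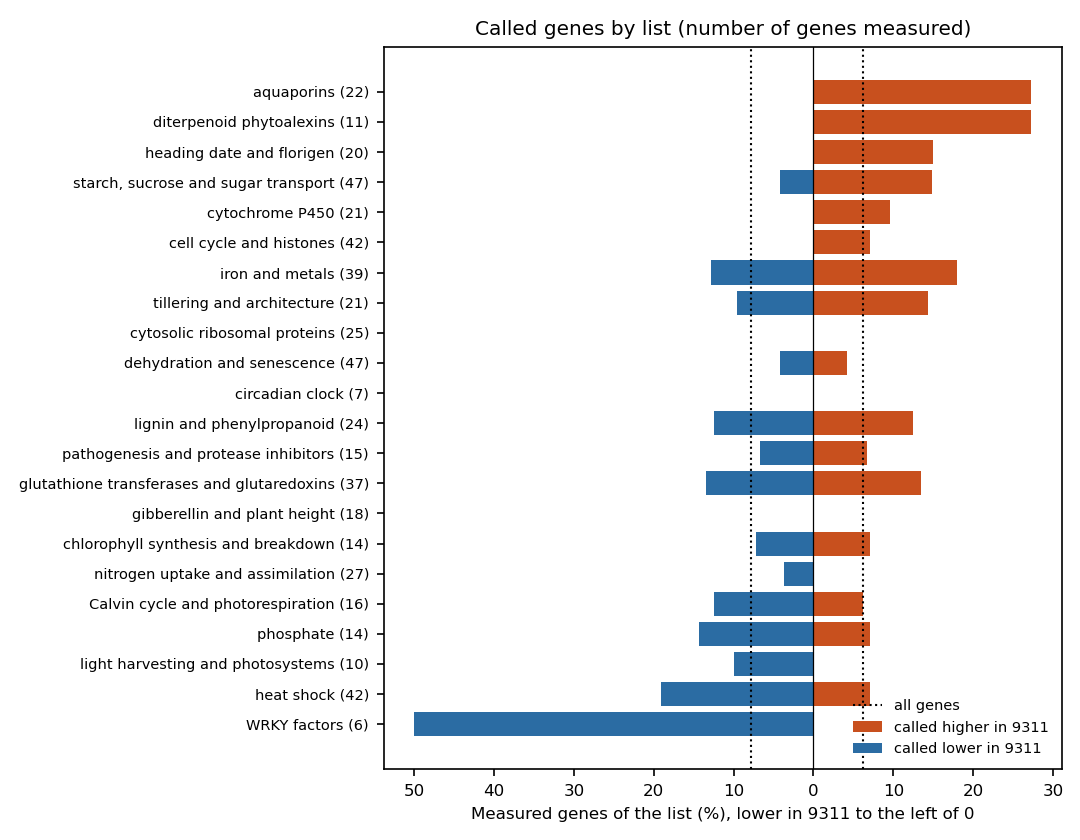
Share of the measured genes of each list that was called higher in 9311 (right of 0) or lower in 9311 (left of 0), averaged over both nutrient states, with the number of genes measured in brackets and dotted lines at the shares of all 14646 genes (6.15% and 7.79%). On the probe sets counted, aquaporins have calls to the right only (6 of 22) and WRKY factors to the left only (3 of 6).

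The same parental difference was then set beside root. In root limma called 4576 probe sets (13.3%), 2109 higher in 9311 (6.15%) and 2467 lower (7.19%). Of the 1520 held leaf probe sets 1225 also passed the root filter, and 878 of these (71.7%) were called in root in the same direction, 16 in the opposite direction and 331 were not called. Among probe sets not held in leaf, 10.6% were called in root. Split by direction, 309 of 483 higher in 9311 leaves were called higher in root and 10 lower, and 569 of 742 lower in 9311 leaves were called lower in root and 6 higher. A direct test of the leaf difference minus the root difference called 1762 probe sets (5.13%), 2.54% with a positive and 2.60% with a negative value. Of 1365 held leaf probe sets in that fit 630 (46.2%) were called, a share that the choice of probe sets by their leaf difference raises, so nothing is read from it.

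Several leading leaf genes differed between the tissues. TAC1 differed by 2.43 in leaf and by -0.36 ± 0.17 in root, not called there, and leaf minus root was 2.78 ± 0.21 (adjusted p = 7.06e-11). ROC1 stood at 0.04 ± 0.09 in root, with leaf minus root at -2.39 ± 0.18 (adjusted p = 4.12e-11). The metal genes NAAT1 (root -0.34), OsZIP1 (0.31), NRAMP4 (-0.21) and OsVIT1.2 (-0.25) were not called in root either, and leaf minus root was called for each, at 2.68, 1.96, 1.98 and 1.97. CML15 was at -1.97 in leaf, against 0.22 in root, and OsNrx1-1 at -1.93 in leaf, against 0.24 in root, neither called in root. By contrast SDH3-2 was at -3.04 ± 0.14 in root, GRXS9 at 2.12 ± 0.25 and GATA17 at 1.56 ± 0.11, and leaf minus root was not called for these 3 (adjusted p = 0.677, 0.922 and 0.542). IRL5 had the larger difference in root, -2.92 ± 0.11.

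**Figure D4:**
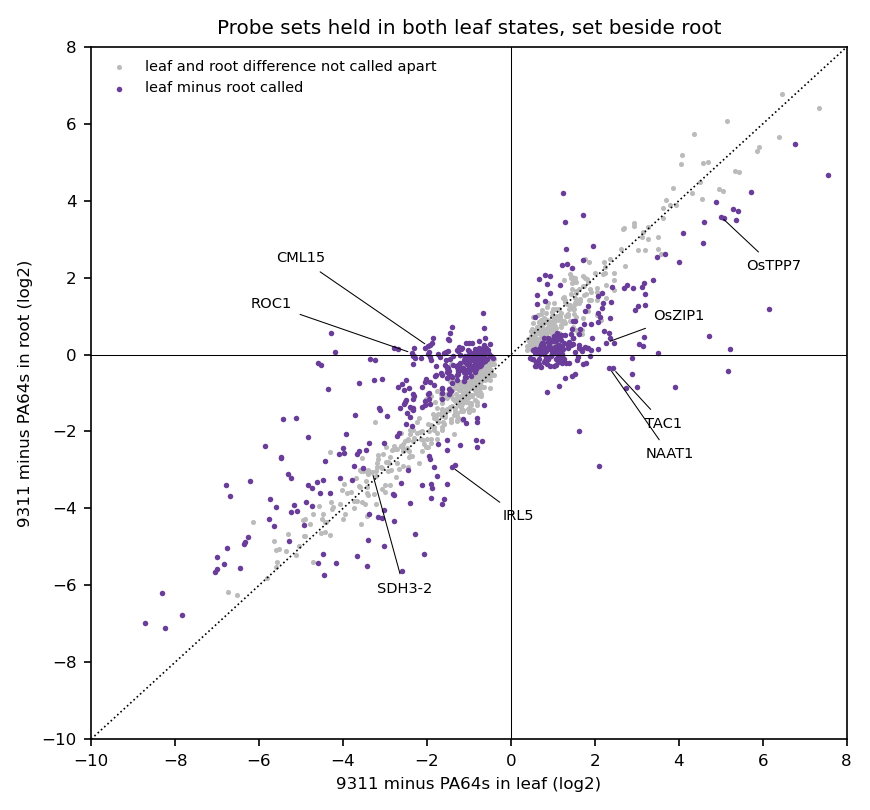
Difference 9311 minus PA64s in leaf (horizontal, log2) and in root (vertical, log2) for the held leaf probe sets measured in both tissues, with purple points where leaf minus root was called and a dotted line where both are equal. SDH3-2 lies near the line, while TAC1, NAAT1, OsZIP1, ROC1 and CML15 lie near 0 on the root axis.

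LYP9 leaves lay between the parents for nearly all large held differences. For the 47 probe sets at least 16-fold higher in 9311, the mean of 6 LYP9 arrays was between the parents in 47, and for the 126 at least 16-fold lower in 126. LYP9 minus the higher parent had a median of -0.80 log2 units where 9311 was the higher (quartiles -0.93 and -0.61) and -0.82 where PA64s was (-0.95 and -0.69). The mean of the parents' linear levels, which any 2 parents this far apart place close to 1 log2 unit under the higher one, stood at a median of -0.96 and -0.95 for the same probe sets. At 2-fold or more, LYP9 was between the parents in 370 of 374 and in 654 of 660. TAC1 averaged 7.33 log2 units in 9311, 6.73 in LYP9 and 4.91 in PA64s, and SDH3-2 averaged 5.82, 8.54 and 9.14 in the same order. On the log2 scale NAAT1 and AGO18 lay nearer to the lower parent. NAAT1 averaged 10.46 in 9311, 8.44 in LYP9 and 8.12 in PA64s, and AGO18 4.90 in 9311, 5.53 in LYP9 and 7.13 in PA64s. These positions share the parental arrays with the comparison and are given without a test.

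A dependence of the parental difference on the nutrient state was called for 6 probe sets (0.0175% of those tested), 5 with a positive value of sufficient minus deficient (0.0146%) and 1 with a negative one (0.00291%). At an unadjusted p under 0.05 (limma) there were 1169, less than a share of 0.05 of those tested, so this number shows no excess. None of the 6 has a named gene. They fall outside the rule for named genes and were chosen after their values were seen. LOC4350133 stayed at 9.8 to 13.3 units on all 9311 arrays, while PA64s read 60.4, 112.8 and 118.7 in sufficient leaves and 778.2, 1086.3 and 1141.8 in deficient ones. The parents thus differed by -3.07 in sufficient and -6.41 in deficient leaves. A probe set with no gene listed read 1958.4, 1273.0 and 1150.5 units in sufficient 9311 leaves and 92.6, 255.2 and 108.4 in deficient ones, against 69.5 to 76.6 in sufficient PA64s leaves and 100, 76.3 and 68.2 in deficient ones. Its difference was 4.28 in sufficient leaves and 0.77, not called, in deficient ones. Of the 1520 held probe sets 3 were among the 6, which means that their direction was the same in both states but their size was not.

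How far a gene can be read from its probe sets was checked over the 2201 genes with 2 or more tested probe sets. Of these, 461 had a call, and all probe sets were called in 1 direction for 105, in opposite directions for 21, and only some were called for 335. Among the 174 of them with a held probe set, every other probe set had the same sign in 126, and in 50 every other one also had at least 0.5 of its log2 size. A difference on 1 probe set is therefore given for that probe set, and where another disagreed this is said beside the gene.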

How the data were processed

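RNA was labelled as biotinylated complementary RNA and measured on Affymetrix rice arrays. The authors deposited linear array intensities, as their range with a floor of 1 shows. Their scaling is not stated in any source used. RMA and affy are named in the submitters' processing notes, with no role. Each intensity was transformed to log2 once, with no pseudocount. The 187 control probe sets were left out, and the upper 60% by mean over the 18 leaf arrays were kept (34316). All 6 leaf groups were fitted with limma 3.58.1 in R 4.3.3 (lmFit, eBayes, 2-sided, 12 residual degrees of freedom). Root and the comparison of tissues were fitted the same way on 18 and 36 arrays. Differences carry limma standard errors, and levels carry SDs of 3 arrays.

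Genes were taken from GEO's platform annotation, where 22436 probe sets carry 1 gene, 95 carry several and 34663 are not listed here. Names came from RefSeq's gene table by gene ID (17905 genes matched, 2459 with a name). No genome build of the probes is stated, so no position is printed. Gene lists (26) were matched to gene symbols and synonyms, and took for each gene the probe set with the highest mean leaf signal. The genes named were the largest held differences without overlap of arrays (12 named and 4 unnamed per direction), the 3 largest called members per direction of each list, all called members of the heading, gibberellin, nitrogen, tillering and fertility lists, and up to 6 named genes per direction whose leaf difference departed from root. The comparison, lists and genes were chosen with earlier results of these data known. Alternatives were quantile and median scaling, other filters, an added constant of 16, the parents' arrays alone, trended robust eBayes, a 2-fold minimum, the replicate number as a block, an additive model and leaving out each array. On simulated data for the average leaf comparison (34316 probe sets), 92 had a 2-fold and 85 a 4-fold change, with noise drawn independently for each array. Of these changes 88% and 100% were called, with 15 false calls, and 60.9% and 92.9% met the rule for held. The real arrays gave far more calls and did not all deviate independently, so these rates need not carry over. Same-numbered arrays of 9311 and PA64s deviated from their group means together in sufficient leaves (correlations of 0.536, 0.27 and 0.236) but less clearly in deficient leaves (0.086, 0.091 and 0.458). Across states the correlations ran from 0.209 to 0.378 for replicate 1, from 0.101 to 0.307 for replicate 3 and from -0.287 to 0.01 for replicate 2. The labels give no meaning to the number.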

Additional observations from a re-analysis of the deposited data

Results flagged for a closer look

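Of the genes named, 12 had a leaf difference between 9311 and PA64s that departed from the root difference in a direct test of leaf minus root (limma). It was positive for TAC1 (2.78), NAAT1 (2.68), NRAMP4 (1.98), OsVIT1.2 (1.97), OsZIP1 (1.96) and FDRMADS3 (LOC4344493, the MADS-box gene MADS26, 1.62). It was negative for ROC1, listed first as GL2-1 (-2.39), LOC4348646 (-2.29), CML15 (-2.19), OsNrx1-1 (-2.17) and OsPht1;8 (-1.35). IRL5 (1.51) differed more in root than in leaf. All 12 kept the call in each of the 31 or 32 settings in which they were tested. These genes were picked for passing this test, so their number carries no weight of its own.

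The parental difference was called as depending on the nutrient state for 6 probe sets. Sufficient minus deficient was 3.34 for LOC4350133, 2.19 for LOC4335838, -1.40 for LOC4336903, and 3.52, 2.62 and 1.82 for 3 probe sets with no gene listed. The call of LOC4350133 was kept in all 19 settings in which it was tested, and that of the probe set at 3.52 in all 20. The others kept it in 12 of 19 (LOC4335838, 1.76 to 2.28), 10 of 20 (LOC4336903, -1.48 to -1.20), 11 of 20 (the probe set at 2.62, 2.31 to 2.89) and 11 of 20 (the probe set at 1.82, 1.73 to 1.92). No test for an array far from the others was run within the groups of 3.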

How the results depend on the processing

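Of 1520 held probe sets, 92.4% to 99.8% were held again under the other scalings, no filter, the added constant, the parents' arrays alone, trended robust eBayes and the block, 67.4% with only the upper 40% of probe sets, and 83.9% to 90.5% with 1 array left out. With a minimum of 2-fold, calls fell to 1264 on average, 1256 in sufficient leaves, 1184 in deficient leaves, 1013 in root and 753 for leaf minus root. The stricter filter gave 1138 for leaf minus root. State dependence was called for 11 probe sets with trended robust eBayes and for 10 with the replicate block. The replicate block, whose numbers paired the parents' arrays more clearly in sufficient than in deficient leaves, gave more calls in each state. It gave 3194 in sufficient leaves, 2755 in deficient leaves, 5424 on average and 1850 held, beside 2318, 2149, 4072 and 1520 without it.

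Leaving out 1 array gave 3298 to 4040 calls on average, 1776 to 2325 in sufficient leaves, 1590 to 2202 in deficient leaves, 1295 to 1429 held, 3049 to 7010 in root and 1442 to 2012 for leaf minus root. The root extremes came without deficient PA64s replicate 2 (3049) and sufficient PA64s replicate 1 (7010). State dependence ranged from 2 to 10. It was 2 without sufficient 9311 replicate 1, 2 or 3, sufficient PA64s replicate 1 or deficient PA64s replicate 2, 3 without sufficient PA64s replicate 3, and 10 without deficient 9311 replicate 3 or sufficient PA64s replicate 2.

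Of 90 named probe sets, 69 kept their average call in every alternative, 21 lost it in at least 1, and 0 reversed. Of the 44 named held ones, 25 were held in every setting and 31 whichever single array was left out. The 6 between these counts were OsPP2C62, LOC4325412, TAC1, OsSPO11-4, MADS26 and AGO18, not kept by the stricter filter. CLPB1 was also not held with quantile scaling, median centring, no filter, the added constant or the parents' arrays alone, PIP2;1 with quantile scaling or no filter, and NAAT1 with the parents' arrays alone. The 13 lost on leaving out an array were NAAT1, OsZIP1, OsVIT1.2, Lsi6, PIP2;1, BURP16, GSTU6, PCNA, SPL15, CLPB1, BIP1, MST3 and the OsPht1;8 probe set at -1.39. With the probe set of median difference for each gene, 1 list moved: gibberellin and height had 1 call.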

Other observations

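Genes with held differences often lay beside each other in the gene order of the RefSeq rice table, which is used here for order only. Of 740 genes with a held probe set and a place in that order, 185 (25%) had a held gene next to them among the genes measured, beside 8.7% of the 13793 genes without one. Of the 185, 117 had a neighbour of the same direction and 69 one of the opposite direction, and a gene can count in both. A run of 5 neighbours lower in 9311 led from LOC4335293 (-0.73) through LOC4335294 (-0.82), LOC4335295 (-1.06) and LOC4335304 (-4.59) to LOC4335309 (-2.48). SDH3-2 (-3.31) was followed by LOC4343405 (-2.24), LOC4343409 (-0.92) and LOC4343413 (-1.17), all lower in 9311. Another run of 4, LOC4328397 to LOC4328400, held values between -5.35 and -2.40. In a run higher in 9311, LOC4336162 was at 1.01, LOC4336163 at 4.95 and LOC4336164 at 3.80. This count was made after the results were seen, and how far neighbours share probe sequence was not tested.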
